A study of Homo sapiens with 12 samples.

Results

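The genes described here encode subunits of the transcription factor NF-kB and products that NF-kB itself induces and that in part switch it off again. They are the 10 genes NFKBIA, TNFAIP3, NFKB1, NFKB2, RELA, RELB, NFKBIE, TNFAIP2, BIRC3 and ICAM1, taken by gene symbol with every probe set of each, among 11963 genes named on the arrays. Of the 10, 9 were named on the arrays with 16 probe sets in all, 6 genes were bright enough to be tested among 6821 tested genes, and BIRC3 was not analysed here. RNA came from LNCaP, an established line of prostate cancer cells, transfected with miR-130a, with miR-203, with miR-205 or, as the control, with a scramble microRNA. Each of these 4 groups had 3 arrays, which the titles call biological replicates, and no time after transfection, dose or microRNA arm is given in the labels. The comparisons with scramble ask how the transcripts changed with each transfected microRNA in this single cell line, and an array averages over all cells of a culture, so fewer responding cells and less RNA per cell cannot be told apart.

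NF-kB is a family of dimers that wait in the cytoplasm, bound by inhibitor proteins of the IkB family. Receptors for cytokines and sensors of foreign RNA activate kinases that mark the inhibitors for destruction, and the freed dimers enter the nucleus and bind kappa-B sites. Among the genes they switch on are those of their own inhibitors and of TNFAIP3, an enzyme that edits ubiquitin chains and dampens the upstream signal, which closes a negative feedback loop.

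The microRNAs act through the seed, bases 2 to 8 of the mature strand, which pairs with target transcripts. The mature RefSeq strands miR-203a-3p (GRCh38.p14, chr14:104117469-104117490, plus strand) and miR-205-5p (chr1:209432166-209432187, plus strand) are shown because they define 2 of the groups, with the seed in capitals, and the labels name neither arm.
miR-203a-3p: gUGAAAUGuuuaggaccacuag
miR-205-5p: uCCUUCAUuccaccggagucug
Their seeds differ.

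All values are log2 expression as the authors deposited them, on a scale from 2.36, the lowest value, to 13.95, with array medians between 2.76 and 2.78. A probe set was called bright on an array when it lay above that array's median, and a gene was tested when its brightest probe set did so on at least 3 of the 12 arrays. Across tested genes r was 0.992 to 0.997 for arrays within a group and 0.964 to 0.986 for arrays from separate groups. All 8 prostate luminal markers named on the arrays, KLK3 among them, were bright on every array, while 9 of 9 leukocyte markers and 6 of 6 endothelial markers were bright on none. Of 4 basal markers ITGA6, and of 9 fibroblast and smooth muscle markers COL1A1 and ACTA2, were bright on every array. The summed level of those 9 was 23.75 to 24.2 log2 with miR-130a, 22.89 to 23.51 with miR-203, 23.2 to 23.23 with miR-205 and 23.15 to 23.42 with scramble. ACTA2 rose with miR-130a (0.44 ± 0.11, adjusted p = 0.0142) and fell with miR-203 (-0.33 ± 0.11, adjusted p = 0.0387), and the part of this list in the results was not tested. The summed level of the 8 luminal markers was 65.2 to 65.51 log2 with miR-130a, 61.33 to 62.13 with miR-203, 65.8 to 66.48 with miR-205 and 64.84 to 65.91 with scramble, so it was lower on the miR-203 arrays, and its part in the results was not tested. As a sign of RNA quality, the 3′ probe set minus the 5′ probe set of ACTB and of GAPDH was taken on each array. Scramble overlapped each microRNA group in both, and ACTB ran from 2.18 to 2.66 log2 over all arrays. GAPDH with miR-203 (0.74 to 0.798) lay above miR-130a (0.722 to 0.737) and miR-205 (0.601 to 0.732). The part of RNA quality in the results was not tested.

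NFKBIA, TNFAIP3, NFKB2 and NFKBIE were higher with miR-130a than with scramble, though the NFKB2 and NFKBIE calls ended when some single arrays were left out. With miR-203 the only member past the threshold was NFKB1, and with miR-205 the only one was NFKBIA. Both of these calls also ended when some single arrays were left out. RELA passed in no comparison, and RELB, TNFAIP2 and ICAM1 stayed below the array median on all 12 arrays. The plot of levels by array shows these patterns.

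**Figure D1:**
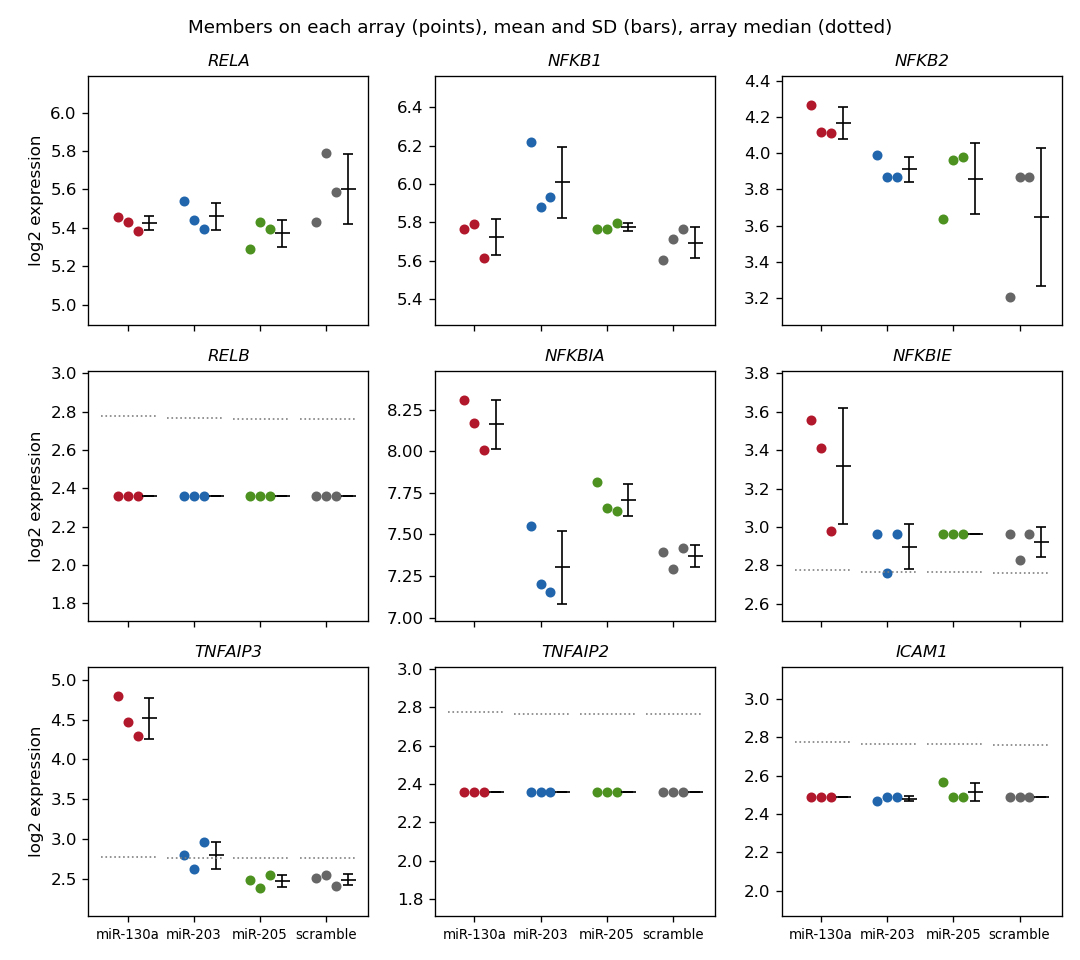
Log2 expression (y axis) of 9 members in the miR-130a, miR-203, miR-205 and scramble groups (x axis), by the brightest probe set of each gene. Points are single arrays, black bars the mean and SD of 3 arrays and dotted lines the array median where it falls inside the panel. Each panel has its own y axis. The 3 miR-130a points of TNFAIP3 and NFKBIA lie above all others, and RELB and TNFAIP2 lie flat at the lowest value.

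Among the subunits, RELA encodes the subunit with the main transactivation domain of the classical dimer. Its brighter probe set, 201783_s_at, read 5.46, 5.43 and 5.38 on the miR-130a arrays, 5.54, 5.44 and 5.40 on the miR-203 arrays, 5.29, 5.43 and 5.39 on the miR-205 arrays, and 5.43, 5.79 and 5.59 on the scramble arrays. The groups overlapped throughout. The differences from scramble were -0.18 ± 0.09 for miR-130a (SE of the limma fit, adjusted p = 0.17), -0.14 ± 0.09 for miR-203 (adjusted p = 0.229) and -0.23 ± 0.09 for miR-205 (adjusted p = 0.0727). Scramble replicate 1 was the lowest scramble array, and without it RELA passed as lower with miR-130a (-0.27, adjusted p = 0.0403) and with miR-205 (-0.32, adjusted p = 0.0167). The second RELA probe set, 209878_s_at, differed from scramble by -0.03 ± 0.11 with miR-130a, by -0.05 ± 0.11 with miR-203 and by 0.02 ± 0.11 with miR-205, and it did not pass.

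NFKB1 encodes a precursor that is processed to the DNA-binding partner of RELA. It was 5.76, 5.79 and 5.61 on the miR-130a arrays, 6.22, 5.88 and 5.93 on the miR-203 arrays, 5.76, 5.76 and 5.80 on the miR-205 arrays, and 5.60, 5.71 and 5.76 on the scramble arrays. The 3 miR-203 arrays lay above all 9 others. NFKB1 rose by 0.32 ± 0.09 with miR-203 against scramble, a 1.24-fold change (adjusted p = 0.0167), and differed by 0.03 ± 0.09 with miR-130a (adjusted p = 0.861) and by 0.08 ± 0.09 with miR-205 (adjusted p = 0.577). The call with miR-203 ended under 4 of 22 alternatives, with adjusted p from 0.0583 to 0.0673. Among these were leaving out miR-203 replicate 1, its highest array (0.21, adjusted p = 0.06), leaving out scramble replicate 1 (0.27, adjusted p = 0.0583) and array weights (0.20, adjusted p = 0.0661).

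NFKB2 encodes the precursor of the subunit that pairs with RELB in the alternative pathway. Its probe set 207535_s_at read 4.27, 4.12 and 4.12 on the miR-130a arrays, 3.99, 3.87 and 3.87 on the miR-203 arrays, 3.64, 3.97 and 3.98 on the miR-205 arrays, and 3.21, 3.87 and 3.87 on the scramble arrays. Every miR-130a array lay above every other array, and scramble replicate 1 lay far below the other two. NFKB2 rose by 0.52 ± 0.15 with miR-130a, 1.43-fold (adjusted p = 0.0267), while miR-203 differed from scramble by 0.26 ± 0.15 (adjusted p = 0.206) and miR-205 by 0.21 ± 0.15 (adjusted p = 0.353).

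The NFKB2 difference rested in part on that 1 control array. Without scramble replicate 1 it was 0.30 and did not pass (adjusted p = 0.0634), and the call also ended without any 1 of the 3 miR-130a arrays (adjusted p from 0.057 to 0.0917). The second NFKB2 probe set, 209636_at, differed by 0.16 ± 0.09 (adjusted p = 0.231), and the third, 211524_at, was at or within 0.01 log2 of the lowest value on every array. RELB, whose product forms the transactivating dimer with processed NFKB2, has 1 probe set, and it was exactly at the lowest value on all 12 arrays, so no difference in RELB could be measured.

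The inhibitor genes came next. NFKBIA encodes IkB alpha, the inhibitor that NF-kB resynthesises fastest. It was 8.31, 8.17 and 8.01 on the miR-130a arrays, 7.55, 7.20 and 7.15 on the miR-203 arrays, 7.82, 7.66 and 7.64 on the miR-205 arrays, and 7.40, 7.30 and 7.42 on the scramble arrays. The miR-130a arrays were highest and the miR-205 arrays next, with no overlap between these and the rest, while miR-203 and scramble overlapped.

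NFKBIA rose by 0.79 ± 0.11 with miR-130a against scramble, 1.73-fold (adjusted p = 0.000197), and this call held under all 23 alternatives, with differences from 0.72 to 0.87. It rose by 0.34 ± 0.11 with miR-205, 1.26-fold (adjusted p = 0.0374). That smaller call ended without any 1 of the 3 miR-205 or 3 scramble arrays, without miR-130a replicate 2 and with no brightness filter (adjusted p from 0.0515 to 0.135). With miR-203 the difference was -0.07 ± 0.11 (adjusted p = 0.664).

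NFKBIE encodes a further IkB protein, IkB epsilon. It was 3.56, 3.41 and 2.98 on the miR-130a arrays, 2.97, 2.76 and 2.97 on the miR-203 arrays, 2.97 on each miR-205 array, and 2.97, 2.83 and 2.97 on the scramble arrays. The same value stood on 7 of the 9 arrays outside the miR-130a group, so the spread of those groups is understated, and 1 of the 3 miR-130a arrays lay just above it. Outside the miR-130a group NFKBIE lay between 2.76 and 2.97, little above the array medians of 2.76 to 2.78. It rose by 0.40 ± 0.12 with miR-130a, 1.32-fold (adjusted p = 0.0317). The call ended under 7 of 22 alternatives (adjusted p from 0.0518 to 0.138), among them leaving out miR-130a replicate 1 or 2 or any 1 scramble array, at differences of 0.28 to 0.42. With miR-203 and miR-205 the differences were -0.02 ± 0.12 (adjusted p = 0.907) and 0.05 ± 0.12 (adjusted p = 0.836).

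TNFAIP3, the ubiquitin-editing feedback enzyme, showed the widest separation of the members. Its brighter probe set, 202644_s_at, was 4.80, 4.47 and 4.29 on the miR-130a arrays, 2.80, 2.62 and 2.96 on the miR-203 arrays, 2.48, 2.39 and 2.54 on the miR-205 arrays, and 2.51, 2.54 and 2.41 on the scramble arrays. It was bright on all 3 miR-130a arrays, on 2 of 3 miR-203 arrays and on 0 of the miR-205 and scramble arrays. TNFAIP3 would have entered the test through its miR-130a arrays alone, so a high value there was a condition of being tested as well as a result.

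Against scramble, where TNFAIP3 was dim, it rose at least 3.38-fold with miR-130a. This bound sets the scramble arrays at their own medians. The measured difference was 2.03 ± 0.12 (adjusted p = 7.26e-08). The second probe set, 202643_s_at, read 3.35, 3.86 and 3.02 with miR-130a and lay below the median on all 9 other arrays, so that it too entered the test through the miR-130a arrays alone. Against scramble it was at least 1.57-fold higher as a bound (adjusted p = 0.000389 over all probe sets, measured difference 1.03 ± 0.15). The call held under all 23 alternatives. With miR-203 the difference was 0.30 ± 0.12, at least 1.02-fold as a bound, and did not pass (adjusted p = 0.0632), although the 3 miR-203 arrays lay above the 3 scramble arrays. It passed without miR-203 replicate 2 and without miR-130a replicate 1 or 3 (adjusted p from 0.0261 to 0.0443). With miR-205 TNFAIP3 was dim on every array, as in scramble, and has no fold.

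Among the other induced genes, ICAM1 encodes an adhesion molecule that leukocytes bind, and TNFAIP2 a protein first described in cells treated with TNF. The 3 ICAM1 probe sets lay between 2.36 and 2.57 on all arrays, and the 2 TNFAIP2 probe sets were at 2.36 on all arrays. Both genes were below the array median in all 4 groups, so a change in either was not detectable here.

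Across all 4 groups, 4 of the 6 tested members (TNFAIP3, NFKBIA, NFKBIE and NFKB1) differed by the moderated F-test of limma, beside 60.8% of all tested genes. Of the 6, 4 rose and 0 fell with miR-130a by limma, where 23.6% of all tested genes passed (12% higher and 11.6% lower). For 4 of the 6 every miR-130a array lay on one side of every scramble array, beside 39.2% of all genes. The median difference of the 6 was 0.46, beside -0.01 over all tested genes. TNFAIP3, part of these counts and of this median, would have entered the test through its miR-130a arrays alone. With miR-203, 1 rose and 0 fell, where 36.2% of all genes passed (17.3% higher and 18.9% lower), and the medians were 0.12 over the members and 0.01 over all genes. No overlap was seen for 2 of the 6, beside 44.3% of all genes. With miR-205, 1 rose and 0 fell, where 26.1% passed (11.3% higher and 14.8% lower), with medians of 0.06 over the members and -0.00 over all genes. No overlap was seen for 1 of the 6, beside 39% of all genes. With each probe set tested alone, 5 of the 9 member probe sets that passed the filter were called with miR-130a, beside 21.3% of all probe sets, and both TNFAIP3 probe sets among the 5 would have entered through the miR-130a arrays alone. With miR-203 it was 1 of the 9, beside 33.9%, and with miR-205 it was 1 of the 9, beside 24.1%. The shares with miR-203 and miR-205 did not exceed those of all genes. The 3 comparisons share the same scramble arrays, so their values are not independent of each other.

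**Figure D2:**
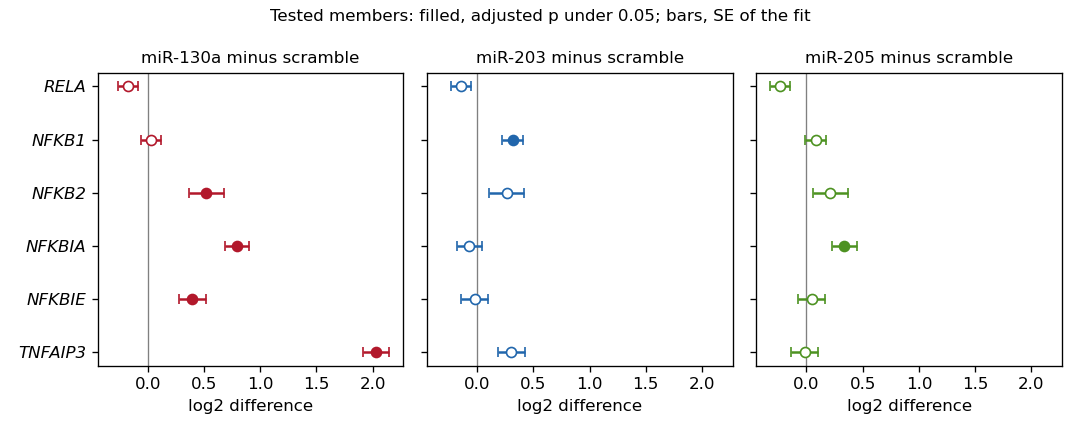
Log2 difference from scramble (x axis) of the 6 tested members (rows) for miR-130a, miR-203 and miR-205. Points are differences of group means over 3 arrays each, bars the SE of the limma fit, and filled points passed an adjusted p of 0.05. With miR-130a 4 points are filled, from NFKBIE at 0.40 to TNFAIP3 at 2.03, which was dim in scramble.

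Set directly against the other microRNAs, miR-130a again had the higher feedback genes. Against miR-203, NFKBIA was higher by 0.86 ± 0.11 (adjusted p = 4.42e-05), TNFAIP3 by 1.73 ± 0.12 (adjusted p = 2.53e-07) and NFKBIE by 0.42 ± 0.12 (adjusted p = 0.0143), while NFKB1 was lower by 0.29 (difference -0.29 ± 0.09, adjusted p = 0.0243). In this comparison 41.2% of all tested genes passed (21.1% higher and 20.1% lower), and 5 of the 6 members did not overlap, beside 52.9% of all genes. The NFKBIE call ended under 5 of 22 alternatives and the NFKB1 call under 4 of 22, among them the 6 arrays alone. NFKB1 was at -0.18 without miR-203 replicate 1 (adjusted p = 0.0942).

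Against miR-205, NFKBIA was higher in the miR-130a arrays by 0.46 ± 0.11 (adjusted p = 0.00588), and TNFAIP3 was higher at least 3.37-fold (adjusted p = 5.17e-08). NFKBIE was higher by 0.35 ± 0.12 (adjusted p = 0.0406), a call that ended under 9 of 22 alternatives. It was 0.23 without miR-130a replicate 1 (adjusted p = 0.18). Of all tested genes 33.6% passed here (18.2% higher and 15.4% lower), and 4 of the 6 members did not overlap, beside 49.7% of all genes.

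Between miR-203 and miR-205, where 37.9% of all genes passed (21% higher and 16.9% lower), NFKBIA was lower with miR-203 by 0.41 (difference -0.41 ± 0.11, adjusted p = 0.0105), under all 23 alternatives. TNFAIP3, dim on every miR-205 array, was at least 1.02-fold higher with miR-203 as a bound, with adjusted p = 0.0502 (measured difference 0.32 ± 0.12), and NFKB1 differed by 0.23 ± 0.09, with adjusted p = 0.0608. Neither passed, although TNFAIP3 did under 6 alternatives and NFKB1 under 3, and 3 of the 6 members did not overlap, beside 47.2% of all genes. The order of the NFKBIA levels was therefore miR-130a, miR-205 and then scramble and miR-203, and the last neighbours did not differ beyond their spread.

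The promoters of NFKBIA, TNFAIP3 and NFKB2, which rose with miR-130a, are shown because kappa-B sites are where NF-kB binds. Of the 10 members 8, all but NFKBIE and RELB, matched RefSeq promoter windows (GRCh38.p14), each of 300 bases from 250 before to 50 after an annotated start, with 12 windows in all. In the kappa-B consensus GGGRNNYYCC, R is A or G, Y is C or T and N is any base. This motif of 10 letters was searched on both strands, and matches may overlap each other. It was found in 6 of the 12 windows, of 5 members, and in 11.3% of all 35116 windows. NFKBIA lies at chr14:35404700-35404999 on the minus strand, TNFAIP3 at chr6:137867009-137867308 on the plus strand, and the NFKB2 window with the most matches at chr10:102394328-102394627 on the plus strand. Capitals mark matches to the consensus.
NFKBIA: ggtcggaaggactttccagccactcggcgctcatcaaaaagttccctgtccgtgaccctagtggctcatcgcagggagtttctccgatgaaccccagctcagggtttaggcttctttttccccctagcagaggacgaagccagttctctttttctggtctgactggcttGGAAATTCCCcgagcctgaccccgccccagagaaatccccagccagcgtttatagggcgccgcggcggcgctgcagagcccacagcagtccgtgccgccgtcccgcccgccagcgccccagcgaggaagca
TNFAIP3: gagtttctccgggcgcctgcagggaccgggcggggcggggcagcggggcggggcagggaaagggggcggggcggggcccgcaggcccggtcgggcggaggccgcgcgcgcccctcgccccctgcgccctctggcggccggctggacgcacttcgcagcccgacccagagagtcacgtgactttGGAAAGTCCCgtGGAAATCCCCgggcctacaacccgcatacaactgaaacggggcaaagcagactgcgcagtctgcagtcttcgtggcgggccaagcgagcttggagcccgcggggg
NFKB2: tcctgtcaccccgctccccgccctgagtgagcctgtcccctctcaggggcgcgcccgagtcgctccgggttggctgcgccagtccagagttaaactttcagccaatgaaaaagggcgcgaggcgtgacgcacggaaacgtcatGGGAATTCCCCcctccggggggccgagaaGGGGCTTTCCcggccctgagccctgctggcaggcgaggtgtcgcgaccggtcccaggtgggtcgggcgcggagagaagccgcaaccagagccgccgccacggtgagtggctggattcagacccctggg

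In NFKBIA 1 match was found, GGAAATTCCC, from base -81 to -72 before the start. In TNFAIP3 the 2 matches, GGAAAGTCCC and GGAAATCCCC, lay at -67 to -58 and at -55 to -46, and 2.04% of all windows held 2 or more. The NFKB2 window held 3, of which the first 2 overlap by all but 1 base each. A match is only a run of letters: NFKB1, which differed by 0.03 with miR-130a, has 1 match as well, at -49 to -40, and BIRC3 has 2. The windows of ICAM1, TNFAIP2 and RELA hold no full match to this consensus, and a stretch that misses it by a letter is not counted. The ICAM1 window holds GGAAATTCCG, which differs from the NFKBIA match in its last base.

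The rest of the pathway was counted from lists. Of 2 further subunit and inhibitor genes tested, REL and NFKBIB, 0 passed in any comparison with scramble by limma (adjusted p from 0.298 to 0.973), and REL, a further subunit, differed by 0.17 with miR-130a (adjusted p = 0.417) and by 0.19 with miR-203 (adjusted p = 0.298). Of 19 receptor genes 6 were tested. With miR-130a the interleukin receptor gene IL17RA rose by 0.46 ± 0.10 and the lymphotoxin receptor gene LTBR fell by 0.31 (difference -0.31 ± 0.07), and the other 4 did not pass. With miR-203 the receptor genes IL1R1 (0.49 ± 0.07) and TNFRSF12A (0.57 ± 0.20) rose, and TNFRSF21 (-0.82 ± 0.13) and LTBR (-0.45 ± 0.07) fell. With miR-205 TNFRSF21 fell (-0.63 ± 0.13) and 5 did not pass. Of all tested genes 23.6% passed with miR-130a, 36.2% with miR-203 and 26.1% with miR-205.

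Of the adaptors and kinases that connect receptors to NF-kB, 29 of 37 were named and 21 tested. With miR-130a 4 rose, 1 fell and 16 did not pass, a share near the 23.6% of all tested genes. The 4 were MAP3K14, the kinase of the alternative pathway, at 0.81 ± 0.15, the adaptor gene MYD88 at 0.57 ± 0.12, MALT1, a paracaspase, at 0.57 ± 0.11, and the kinase gene IRAK1 at 0.42 ± 0.08. With miR-203 3 of the 21 rose and 2 fell, beside 36.2% of all genes, and MYD88 fell there (difference -0.995 ± 0.12, adjusted p = 5.72e-05). IRAK1 also rose with miR-203 (0.50 ± 0.08) and with miR-205 (0.39 ± 0.08). With miR-205 3 rose and 3 fell, beside 26.1% of all genes, the lowest being RBCK1, of the linear ubiquitin ligase, at -0.49 ± 0.09.

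Genes that restrain NF-kB moved both ways. Of 13 tested, 2 rose and 0 fell with miR-130a by limma, beside 23.6% of all genes. The 2 were TNIP1, whose product binds that of TNFAIP3, by 0.74 ± 0.10 (adjusted p = 0.000182) and N4BP1 by 0.61 ± 0.09. With miR-203 3 rose and 3 fell, beside 36.2% of all genes. Among them were TAX1BP1, an adaptor of TNFAIP3, at -0.75 ± 0.10 and the receptor gene SIGIRR at -0.73 ± 0.11. With miR-205 1 rose and 3 fell, beside 26.1% of all genes, and TNIP1 and TNIP2, whose products bind that of TNFAIP3, were among those that fell, TNIP1 at -0.74 ± 0.10 (adjusted p = 0.000157) and TNIP2 at -0.67 ± 0.07 (adjusted p = 1.87e-05). TNIP1 thus lay at 5.73 ± 0.11 with miR-130a and 4.25 ± 0.20 with miR-205, beside 4.99 ± 0.08 with scramble (SD, n = 3 each).

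Of 48 genes described as induced by NF-kB, 46 were named on the arrays and 14 tested, so most of the list was too dim to be tested in these cells. With miR-130a 5 rose, 1 fell and 8 did not pass, beside 23.6% of all genes, with a median of 0.24 beside -0.01 over all genes. TNFSF10, the death ligand, was dim in scramble and rose at least 5.39-fold, the cytokine gene TNFSF15 rose by 0.83 ± 0.14, TNFAIP8 by 0.62 ± 0.10 and the AP-1 gene JUNB by 0.50 ± 0.09. With miR-203 5 rose and 3 fell (median 0.07, beside 0.01 over all genes, of which 36.2% passed). The survival gene BCL2L1 was at -0.94 ± 0.12 and TNFAIP8 at -0.48 ± 0.10. TNFSF10 rose at least 1.30-fold with miR-203 as well, TNFSF15 by 0.47 ± 0.14 and JUNB by 0.38 ± 0.09. With miR-205 2 rose and 5 fell (median -0.10, beside -0.00 over all genes, of which 26.1% passed). There the cyclin gene CCND1 was at -0.75 ± 0.10 and MYC at 0.67 ± 0.10.

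**Figure D3:**
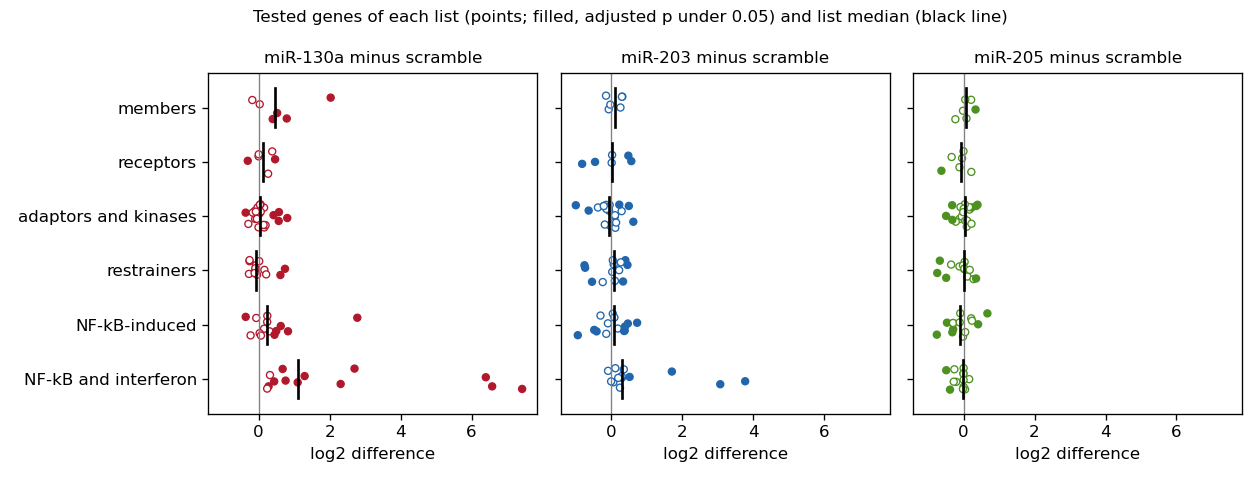
Log2 difference from scramble (x axis) of the tested genes in 6 lists (rows) in panels for miR-130a, for miR-203 and for miR-205. Each point is a gene, filled where it passed an adjusted p of 0.05, and black lines are list medians. The genes induced by both NF-kB and interferon reach 7.43 with miR-130a and 3.78 with miR-203, both for CXCL10. With miR-130a the members reach 2.03, for TNFAIP3, with a list median of 0.46. The remaining lists lie mostly around 0.

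Of 13 tested genes that both NF-kB and interferon induce, 11 rose and 0 fell with miR-130a (median 1.10). With miR-203 5 rose and 0 fell (median 0.29), and with miR-205 0 rose and 2 fell (median -0.01). Of all tested genes 23.6% passed with miR-130a, 36.2% with miR-203 and 26.1% with miR-205, with medians of -0.01, 0.01 and -0.00. In scramble arrays 6 of the 13 were dim, so part of the list was tested because it was bright elsewhere. The chemokine gene CXCL10 rose at least 146-fold with miR-130a and at least 11.6-fold with miR-203, and CCL5 at least 73.2-fold and at least 6.44-fold. IFNB1, encoding interferon beta, whose promoter is a classical NF-kB target, rose at least 4.95-fold with miR-130a and did not pass with miR-203 (adjusted p = 0.137). Of 19 tested genes induced by interferon, 6 were dim in scramble. Beside the same shares and medians of all genes, 18 of the 19 rose with miR-130a (median 3.26) and 15 with miR-203 (median 2.09). With miR-205 2 rose and 1 fell (median 0.03). Of these 19 genes, IFIT1 rose by 6.73 ± 0.09 with miR-130a, 4.81 ± 0.09 with miR-203 and 0.85 ± 0.09 with miR-205. With miR-203 NFKBIA differed from scramble by -0.07 and TNFAIP3 by 0.30 (limma, adjusted p = 0.0632), and the TNFAIP3 arrays did not overlap those of scramble. With miR-205 NFKBIA was higher by 0.34, a call that ended under 8 of 23 alternatives. IFIT1 also passed with miR-205 (limma, adjusted p = 1.98e-05), but 16 of the 19 genes induced by interferon did not pass there. The largest change of that list with miR-205 was a fall, of IFI35, at -1.16 ± 0.16 (limma, adjusted p = 0.000155). The part of the interferon response in the members' values was not tested.

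Across the 12 arrays the genes most like each member were named by Pearson correlation of log2 values, as a description of arrays that fall into 4 groups. For TNFAIP3 these were MSMB (r = 0.994), IFNB1 (r = 0.99) and CXCL11 (r = 0.985), which share its high miR-130a arrays. For NFKBIA they were SYNCRIP (r = 0.956), DNAJB9 (r = 0.94) and PITPNB (r = 0.939), of which SYNCRIP differed from scramble by 0.48 with miR-130a, by -0.11 with miR-203 and by 0.28 with miR-205. For NFKBIE they were FANCC (r = 0.955), TOP3A (r = 0.926) and ZSCAN12 (r = 0.894). NFKB1 was most like KLC1 (r = 0.94), which differed from scramble by 0.36 with miR-203, NFKB2 most like GTF2I (r = 0.882), and RELA most like FKBP8 (r = 0.945).

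Among the members themselves, NFKBIA, NFKBIE and TNFAIP3 correlated with each other over the 12 arrays with r between 0.799 and 0.825. NFKB2 correlated with these 3 with r between 0.492 and 0.636, while RELA and NFKB1 lay between -0.34 and -0.08 with them.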

How the data were processed

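Expression was measured on 12 arrays of LNCaP cells, 3 per group, and the groups and replicate numbers come from the sample titles. The authors deposited log2 values per probe set, and per the submitters' processing notes R 2.9.0, RMA and limma were used, with no role or order given; the background method is not given in the sources used here. Of 22277 probe sets, 19070 had 1 gene symbol in the platform annotation, 1043 several and 2164 none, and only the first were used. A gene was represented by its probe set of highest mean. Group means over all 12 arrays were fitted with limma 3.58.1 in R 4.3.3 (8 residual and 4.84 prior degrees of freedom), with eBayes and two-sided p-values adjusted by Benjamini-Hochberg over 6821 genes at a threshold of 0.05. Each difference subtracts the second-named group's mean log2 value, ± SE of the fit. The p-values reflect only how far these cultures varied, and the number of arrays limits the precision. A gene bright on no array of a group is given as a bound against the higher of array median and own value. Named list genes are, per comparison with scramble, up to 4 called genes without overlap of largest difference, and up to 3 most alike genes per member. The members and lists were chosen with earlier results of these data known. The fit was tested on simulated data. These had independent normal noise, no lowest value and no equal values, so they do not cover members with equal values in a group. No scan dates or other batches are given in the sources used here. The labels do not say that a replicate number marks a shared day or batch. Deviations of same-numbered arrays correlated above 0.1 in all 3 miR-203 and miR-205 pairs (0.1047 to 0.3125), so the numbers were taken to pair these groups, and in 0 of the other 15 pairs (-0.1125 to 0.0965).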

Additional observations from a re-analysis of the deposited data

How the results depend on the processing

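The results were recomputed with quantile scaling, with no brightness filter or a stricter one (bright on all 12 arrays), with other ways to choose a gene's probe set, without genes that have equal values in a group, with array weights, with an eBayes trend, with the replicate block, with only the 6 arrays compared and without each array in turn. Of 819 recomputed member differences 757 stayed on their side of the threshold, 44 lost and 18 gained a call, and 0 reversed. NFKBIA and TNFAIP3 with miR-130a held throughout, and with probe sets of a gene averaged TNFAIP3 was at 1.53 and NFKB2 at 0.23. By their construction, the stricter filter left out TNFAIP3, and leaving out genes with equal values removed NFKB1, NFKB2 and NFKBIE. The count of 4 members with miR-130a was 2 with no filter, 2 without genes with equal values, 2 in the 6 arrays alone and from 2 to 4 without 1 array. The count of 1 with miR-203 was 0 without genes with equal values, 0 with array weights, 0 in the 6 arrays alone and from 0 to 2 without 1 array. The count of 1 with miR-205 was 0 with no filter, 2 with array weights and from 0 to 1 without 1 array. For miR-130a against miR-203 the count of 4 was 2 with no filter and 2 without genes with equal values, and from 3 to 5 without 1 array; against miR-205 the count of 3 was from 2 to 4. For miR-203 against miR-205 the count of 1 was 3 with quantile scaling, 2 with mean probe sets, 2 without genes with equal values, 2 with the trend and from 1 to 3 without 1 array. Apart from genes so removed, the cause was not tested. With the replicate block the counts were 4, 1 and 1 members against scramble, as without it, and 1631 genes passed with miR-130a, beside 1610. For miR-203 against miR-205, where the numbers were taken to pair the arrays, 1 member and 2583 genes passed with the block, beside 1 and 2585 without it. The block changed no member's call in any comparison. It spans all 12 arrays, scramble among them, so a pairing of miR-203 with miR-205 alone was not fitted. In 9 of 9 pairs among the 3 microRNA groups, the array of the first-named group correlated best with its own number in the second, a hint from the data and not from the design.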
